A study of Cyanidioschyzon merolae strain 10D with 4 samples.

Results

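The genes described here are nucleus-encoded transcripts of the unicellular red alga Cyanidioschyzon merolae that were abundant in darkness and stood at between 0.25 and 0.5 times their darkness level after blue light. Members were all rows of the authors' table that lay on a numbered chromosome at a locus shared with no other row, spanned at least 300 bp and carried an identifier starting with CM. They had at least 400 FPKM in darkness, and their blue light value was over 0.25 and at most 0.5 times the darkness value. FPKM counts fragments per kilobase of a gene relative to the depth of the library, so it is a level per length and relative to all other transcripts. Of 94 rows that met these limits, 1 was among 20 identifiers left out by name, which left 93 of the 5100 rows in the table. They made up 20.8% of the 447 nuclear rows with at least 400 FPKM in darkness. Members were thus chosen by their FPKM in darkness and under blue light, which are the outcome of the comparison, and their levels and fold changes are given as a description.

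The study measured messenger RNA of whole cells by RNA sequencing in wild type strain 10D, grown in 2xMA medium. The darkness group had 2 libraries, titled as darkness, although their exposure text is the same as that of the blue light libraries. The blue light group had 2 libraries from cells exposed for 30 minutes to blue light of 15 µmol per square metre per second. The series calls them biological duplicates, but the sample labels do not say whether they came from separate cultures, so a spread between them may be technical.

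Cyanidioschyzon merolae lives in hot acidic springs and has a compact genome in which most nuclear genes lack introns. Light serves it both as the energy source for photosynthesis and as a signal, and blue light is sensed in many algae by flavin-binding photoreceptors such as cryptochromes. The level of a transcript follows from how fast it is made and how fast it is degraded, and a level measured at a single time does not tell these apart. In RNA from a whole culture, a lower level in every cell and a loss in part of the cells cannot be told apart either.

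All 93 identifiers matched a protein-coding locus tag in RefSeq, and 0 of them had a symbol other than the tag there. No product name, protein or promoter sequence was at hand, so the genes are described by identifier, position and level, without a role. The span of each gene model differed by at most 3 bp from the RefSeq length, which was a multiple of 3 for all 93, so the spans are coding lengths without untranslated regions.

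In darkness the 93 genes ran from 403 to 15914 FPKM, with a median of 718 and quartiles of 513 and 1388 FPKM. Under blue light they ran from 111 to 5329 FPKM, with a median of 257 and quartiles of 190 and 500 FPKM. The median gene kept 37.2% of its darkness level, a log2 fold change of -1.43 with quartiles of -1.73 and -1.19. Over all 4496 tested genes with a finite value, the median log2 fold change was -0.017, with quartiles of -0.65 and 0.74. The other 354 abundant nuclear genes had a median of -0.26 and quartiles of -0.82 and 0.45. Members filled the allowed range of ratios evenly: 33 stood at or under 0.333 times darkness, 30 between there and 0.42, and 30 above. Under blue light, 29 of the genes still had at least 400 FPKM, and 64 had less.

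**Figure D1:**
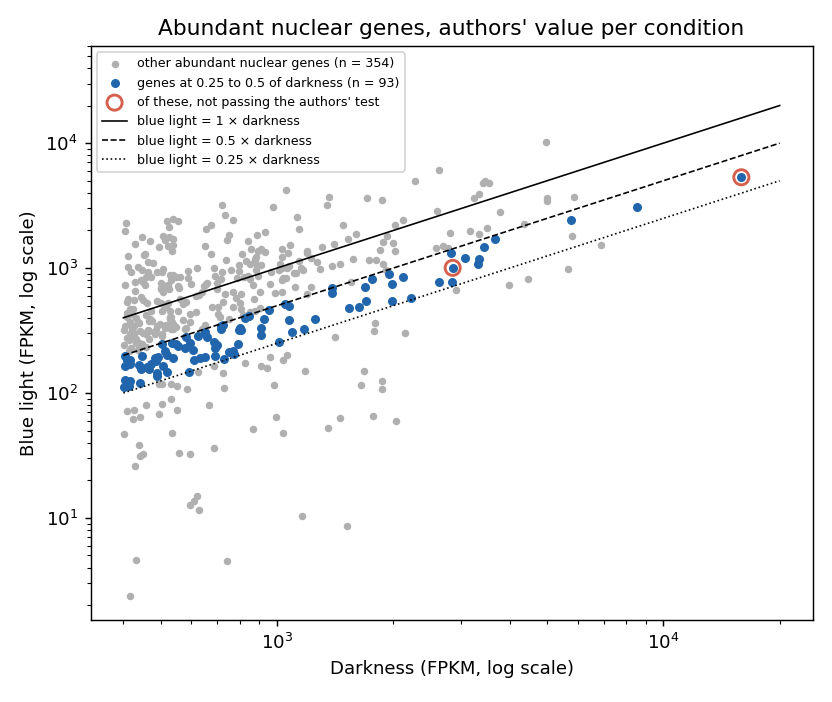
FPKM under blue light against FPKM in darkness, both on log axes, for the 447 nuclear genes with at least 400 FPKM in darkness; each point is the authors' value for 1 gene. The 93 genes in blue lie between the lines at 0.25 and 0.5 times darkness along the whole range of levels, and the 2 circled genes did not pass the authors' test.

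In the authors' deposited table, 91 of the 93 genes fell at a q-value under 0.05, where 26.1% of all 4503 tested genes fell. Since the limits of the rule required a drop of at least 2-fold, that share says nothing further about these genes. The smallest p-value in the authors' deposited table, 5e-05, was shared by 79 of them, so it does not rank these genes. How many of all tested genes reached that value was not counted. At a q-value under 0.01 the authors' deposited table called 89 of the 93, beside 19.7% of all tested genes. With a limit of 1.5-fold added at a q-value under 0.05, which the table's header names, the calls were the 91 genes again, beside 24.2% of all tested genes.

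The 2 genes that did not pass were among the most abundant. CMK024C, on chromosome 11 from 65471 to 65991, had 15914 FPKM in darkness, the highest value of any row, and 5329 FPKM under blue light. Its log2 fold change was -1.58, and the authors' deposited table gave q = 0.36. CMR337C, on chromosome 18 from 818191 to 820397, had 2848 FPKM in darkness, 1004 FPKM under blue light and a log2 fold change of -1.50 (q = 0.34 in the authors' deposited table). Both folds lay inside the range of genes that passed. The authors' deposited test statistics were -0.98 for CMK024C and -0.79 for CMR337C, the closest to 0 among the 93, whose median was -5.49.

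A further 2 genes passed narrowly. CMH239C, on chromosome 8 from 615078 to 615706, had 8524 FPKM in darkness and 3089 FPKM under blue light (q = 0.043 in the authors' deposited table). CMP002C, on chromosome 16 from 4033 to 6323, had 2226 FPKM in darkness and 581 FPKM under blue light (q = 0.044 in the authors' deposited table). These were the only 2 of the 91 called genes with a q-value of 0.01 or more.

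The other abundant members were spread over much of the range of ratios that the rule allows. CMK071C, on chromosome 11 from 213681 to 214234, went from 5769 to 2446 FPKM, or -1.24 on the log2 scale. CMH254C, on chromosome 8 from 660956 to 661449, went from 3671 to 1706 FPKM, or -1.11 on the log2 scale. CMM217C, on chromosome 13 from 541082 to 541421, went from 3433 to 1470 FPKM, or -1.22 on the log2 scale. These 3 genes kept over 42% of their darkness level. CMI066C, on chromosome 9 from 192249 to 192969, went from 3312 to 1072 FPKM, or -1.63 on the log2 scale. CMK238C, on chromosome 11 from 656635 to 657280, went from 2842 to 768 FPKM, or -1.89 on the log2 scale. The last of these kept 27.0% of its darkness level, the least among the 10 members highest in darkness.

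Together the members held a large part of the transcript pool in darkness. Their summed FPKM was 12.2% of the total in darkness and 4.49% of the total under blue light. CMK024C alone made up 12.8% of the members' darkness sum, and the 10 highest genes made up 42.3%. Without CMK024C the shares were 10.6% in darkness and 3.97% under blue light. The other 354 abundant nuclear genes held 34.8% of the darkness total and 32.9% of the blue light total. These sums have no replicate check. Of the 20 rows highest in darkness 4 were members, and of the 20 rows highest under blue light 1 was. Members made up 20.8% of the abundant nuclear rows. The rule required each member to fall by at least 2-fold. The lower share and count under blue light thus follow from the rule and are a description. The limit of 400 FPKM likewise favoured a large share in darkness.

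Among the abundant nuclear genes, falls of this size were present at every level of darkness expression. Members were 34 of 198 genes from 400 to 600 FPKM in darkness, or 17.2%, and 28 of 120 from 600 to 1000 FPKM, or 23.3%. They were 17 of 83 genes from 1000 to 2000 FPKM, or 20.5%, and 14 of 46 at 2000 FPKM or more, or 30.4%. The highest level thus had the highest share, on 46 genes. Within the members, the ratio hardly varied with the level: the median ratio was 0.39 in the lowest of these ranges and 0.36 in the highest. Across the 93 genes, Spearman's rho between darkness level and log2 fold change was 0.017, where both measures share the darkness value and the rule bounds the fold change. Over all 447 abundant genes it was -0.13, and their median ratio was 0.72 at 400 to 600 FPKM and 0.52 at 2000 FPKM or more.

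**Figure D2:**
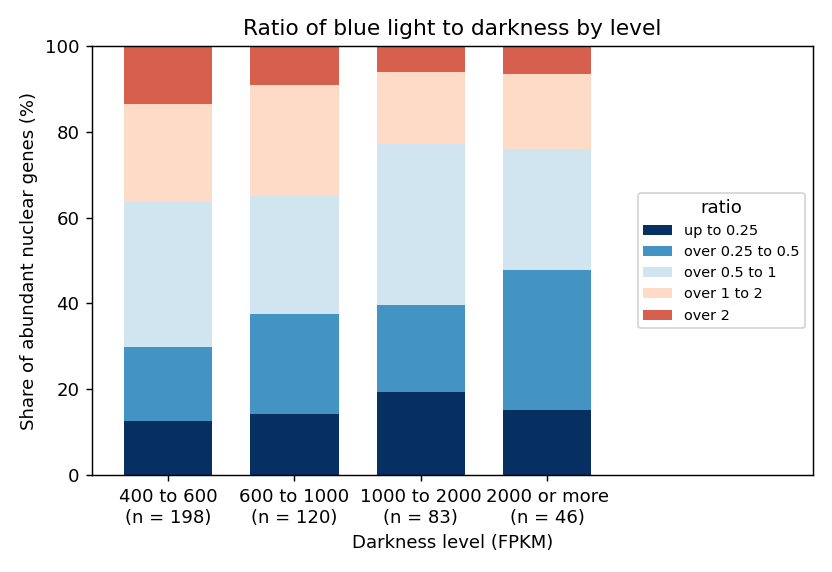
Share of the abundant nuclear genes in 5 ranges of the ratio of blue light to darkness, stacked to 100%, for 4 ranges of darkness FPKM with the number of genes under each bar. The band over 0.25 to 0.5 takes between 17.2% and 32.6% of each bar; it also holds the 1 gene left out by name.

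The limits of the rule cut through a continuous distribution. At the upper ratio limit, CMK204C lay just inside at 0.498 times darkness and CMC133C just outside at 0.501. The next members inside were CMR155C at 0.494 and CMB081C at 0.491, and the next genes outside were CMN110C at 0.502 and CMH045C at 0.504. Nothing separated the genes on either side of that limit. At the lower ratio limit, CMT393C lay inside at 0.2503 and CMB060C at 0.255, and the nearest gene outside was CMD180C at 0.240. At the darkness limit, CMI073C lay inside at 403 FPKM, and CMA028C outside at 399 FPKM with a ratio of 0.442. Of all 447 abundant nuclear genes, identifiers left out by name included, 65 stood at or under 0.25 times darkness and 144 between 0.5 and 1 times darkness.

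Values per library could be recovered for part of the members. FPKM values of a gene are sums of whole fragments from the libraries of a condition, each fragment having a fixed worth for a given library and span. For some genes only 1 combination of whole fragments gives the deposited values. Which replicate number belongs to which library is not known, so in each condition they are named by depth, as deeper or shallower. Their scaled depths ran from 418040 to 845127 fragments, and both blue light libraries were shallower than both darkness libraries. The search covered the 61 members spanning at least 650 bp and gave a unique solution in all 4 libraries for 10 of them. Abundant and long genes have more possible combinations, so these 10 lie at the lower end of the darkness range, from 403 to 828 FPKM, with spans of 672 to 1080 bp.

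For the 10 genes, the values per library are those of the unique solution. They were inferred from the deposited values and not counted from reads. CMP332C, on chromosome 16 from 832700 to 833391, had 831 and 824 FPKM in the deeper and shallower darkness libraries and 410 and 392 FPKM in the deeper and shallower blue light libraries. The means were 828 ± 4.91 and 401 ± 12.5 FPKM (SD, n = 2), and the libraries of a condition were far closer to each other than to the other condition. CMK163C, on chromosome 11 from 454386 to 455059, had 746 and 686 FPKM in the darkness libraries and 348 and 302 FPKM in the blue light libraries. CMA069C, on chromosome 1 from 216461 to 217211, had 544 and 495 FPKM in the darkness libraries and 151 and 143 FPKM in the blue light libraries. Its lower darkness library was 3.27 times its higher blue light library, the widest gap among the 10.

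CMJ033C, on chromosome 10 from 95116 to 96133, had 522 and 453 FPKM in the darkness libraries and 180 and 183 FPKM in the blue light libraries. CML073C, on chromosome 12 from 160691 to 161771, had 503 and 438 FPKM in the darkness libraries and 169 and 170 FPKM in the blue light libraries. In both, the blue light libraries were nearly equal while the darkness libraries differed more. CMQ390C, on chromosome 17 from 1005915 to 1006875, had 473 and 541 FPKM in the darkness libraries and 167 and 160 FPKM in the blue light libraries. It was the only one of the 10 that was higher in the shallower darkness library. CMR088C, on chromosome 18 from 243370 to 244249, had 507 and 424 FPKM in the darkness libraries and 173 and 138 FPKM in the blue light libraries.

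The widest differences between blue light libraries among the 10 were in 3 genes. CML153C, on chromosome 12 from 388680 to 389467, had 710 and 675 FPKM in the darkness libraries and 181 and 274 FPKM in the blue light libraries. CMS047C, on chromosome 19 from 120396 to 121081, had 519 and 464 FPKM in the darkness libraries and 159 and 230 FPKM in the blue light libraries. CMI073C, on chromosome 9 from 214453 to 215125, had 410 and 395 FPKM in the darkness libraries and 142 and 80.4 FPKM in the blue light libraries, on 39 and 17 fragments. The blue light libraries of these genes differed by 1.45-fold to 1.76-fold, and not always in the same direction.

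Libraries of the 2 conditions did not overlap for any of the 10 genes, with blue light lower in each; of 3002 tested nuclear genes with all 4 libraries recovered, 39.0% had blue light libraries entirely below the darkness libraries. The rule had fixed a drop of at least 2-fold in the means, so that count is no separate evidence. The ratio of the lower darkness library to the higher blue light library ran from 1.97 for CMK163C to 3.27, with a median of 2.47. Between the darkness libraries the 10 genes differed by 1.01-fold to 1.19-fold, with a median of 1.11-fold, and 9 were higher in the deeper library. Between the blue light libraries they differed by 1.00-fold to 1.76-fold, with a median of 1.10-fold, and 6 were higher in the deeper library. Recovered fragments per gene and library numbered 17 to 388.

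**Figure D3:**
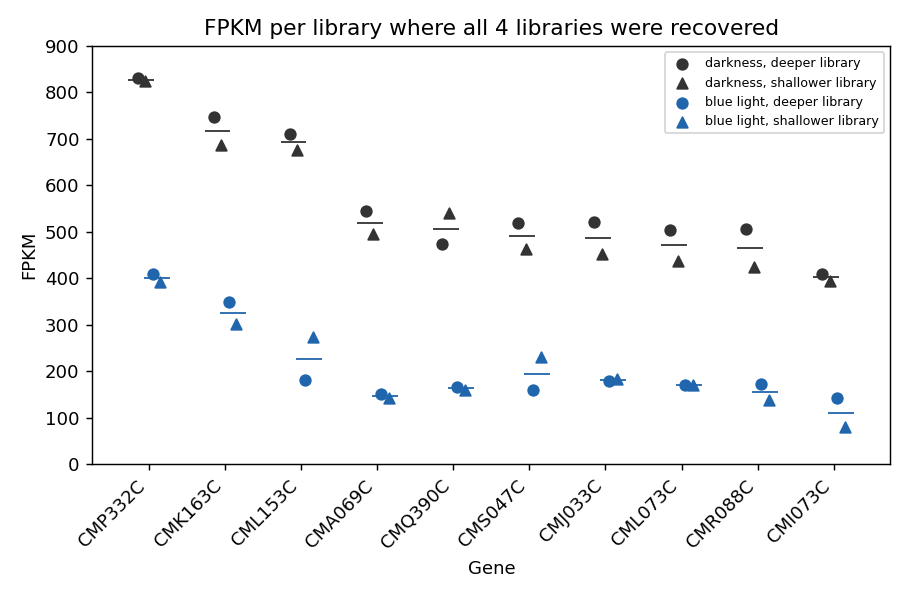
FPKM in each recovered library for the 10 genes with all 4 libraries recovered, in order of darkness level; circles are the deeper and triangles the shallower library of a condition, black for darkness and blue for blue light, and lines are means of 2 libraries. Every blue light library lies below every darkness library of the same gene, by at least 1.97-fold.

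Under blue light, where levels were lower, the libraries were recovered for 44 members. These spanned at least 650 bp and had at most 823 FPKM under blue light. CMK024C, CMR337C, CMH239C and CMP002C, which did not pass the authors' test or passed narrowly, were not among the 44. The blue light libraries of the 44 genes differed by 1.00-fold to 2.66-fold, with a median of 1.11-fold and quartiles of 1.04 and 1.30. For comparison, 1224 tested genes with 110 to 800 FPKM under blue light had a median of 1.14-fold between these libraries. The deeper library was the higher one for 28 of the 44 genes and the lower one for 16. For 40 of the 44, the higher blue light library was below 0.5 times the deposited darkness value. The rule held the mean of both blue light libraries to at most that limit, so the count describes the spread between libraries and is no separate evidence of a fall.

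The 4 genes whose higher library exceeded that limit were CMD134C, CMD017C, CMG142C and CMR229C. CMD134C, on chromosome 4 from 348842 to 351132, had 554 FPKM in darkness and 130 and 345 FPKM in the deeper and shallower blue light libraries, on 149 and 306 fragments. Its recovered libraries thus stood 2.66-fold apart, the widest spread of the 44, and its higher library kept 62.2% of the darkness level. This split was inferred from the deposited values. The check on values with few possible combinations, described under processing, did not cover it. CMD017C, on chromosome 4 from 54283 to 55103, had 845 FPKM in darkness and 343 and 479 FPKM in the blue light libraries. CMG142C, on chromosome 7 from 361266 to 362502, had 547 FPKM in darkness and 290 and 208 FPKM in the blue light libraries. For CMR229C, on chromosome 18 from 572149 to 573604, the darkness value was 723 FPKM and the blue light libraries had 335 and 371 FPKM. Only for CMD134C did the blue light libraries differ by 2-fold or more, and 40 of the 44 genes differed by less than 1.5-fold.

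**Figure D4:**
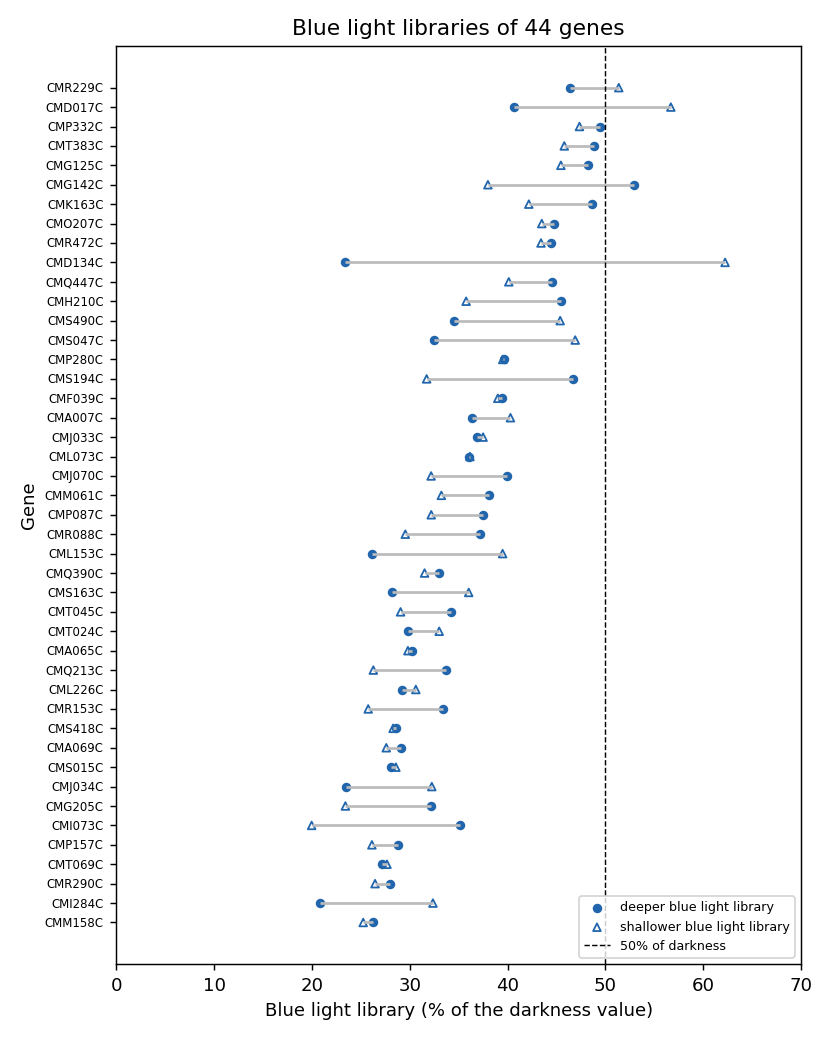
FPKM of the deeper (filled circle) and shallower (open triangle) blue light library as a percentage of the deposited darkness value, for the 44 genes with both blue light libraries recovered, ordered by their mean; the dashed line marks 50%. For 40 genes both libraries lie left of the line, and CMD134C has the longest bar, with its higher library at 62.2%.

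Members lay on all 20 nuclear chromosomes. Chromosomes 17 and 18 held 9 each, and chromosomes 3, 5, 14 and 15 held 1 each. On chromosome 1 they were 5 of 9 abundant genes, and on chromosome 2 they were 6 of 10, where members made up 20.8% of abundant nuclear genes over all chromosomes. These chromosomes were singled out after their counts were seen, and the counts were not tested.

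Most members had no other member beside them: 5 pairs were next to each other on the chromosome, which took in 10 of the 93 genes. CML162C and CML163C, on chromosome 12 from 408694 to 409342 and from 409563 to 410407, lay 221 bp apart and were the most abundant pair. CML162C went from 3340 to 1176 FPKM, and CML163C from 3061 to 1202 FPKM, log2 fold changes of -1.51 and -1.35. Within each condition, CML162C and CML163C thus had nearly the same level as each other. CMA069C and CMA070C, on chromosome 1, lay 46 bp apart, and CMA070C, from 217257 to 217777, went from 925 to 388 FPKM. Whether reads were divided correctly between transcripts this close was not tested.

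The remaining 3 pairs lay further apart. CMB098C and CMB099C, on chromosome 2 with 953 bp between them, went from 806 to 319 FPKM and from 633 to 191 FPKM. CMR153C and CMR155C, on chromosome 18 with 1232 bp between them, went from 2631 to 777 FPKM and from 1049 to 518 FPKM, log2 fold changes of -1.76 and -1.02. CMJ033C and CMJ034C, on chromosome 10, had 4302 bp between them, and CMJ034C went from 770 to 215 FPKM. Levels and folds within these pairs were less alike than in the pair on chromosome 12.

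Genes next to members fell at about the share of all tested genes. Of 164 tested genes that flanked a member and were not members themselves, 43 fell in the authors' deposited table, or 26.2%, beside 26.1% of all tested genes. A further 38 rose in the authors' deposited table, or 23.2%, beside 27.1% of all tested genes, and 83 did not pass. The median log2 fold change of the flanking genes was 0.045, and their median level in darkness was 114 FPKM. Of 567 tested genes flanking the other abundant genes, 24.3% fell and 30.3% rose in the authors' deposited table. Their median level in darkness was 105 FPKM, and they can include members. The difference between the 2 flanking sets was not tested. In 2 places a single gene lay between a pair of members. CML227C, between CML226C and CML228C on chromosome 12, had 44.8 FPKM in darkness and 30.6 FPKM under blue light and did not pass (q = 0.16 in the authors' deposited table). CMP158C, between CMP157C and CMP159C on chromosome 16, had 19.5 FPKM in darkness and 36.0 FPKM under blue light and did not pass either (q = 0.097 in the authors' deposited table).

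The gene models of the members were short, as were those of abundant genes in general. Their median span was 942 bp, with quartiles of 601 and 1551 bp. The other 354 abundant nuclear genes had a median of 808 bp with quartiles of 528 and 1301 bp, and all 4204 tested nuclear genes at unshared loci had a median of 1297 bp with quartiles of 859 and 1955 bp. Models under 600 bp made up 24.7% of the members, 31.9% of the other abundant genes and 10.9% of all tested nuclear genes. The longest member was CMP215C at 4279 bp, on chromosome 16 from 535467 to 539746, which went from 442 to 121 FPKM. The shortest was CMP159C at 310 bp, from 398685 to 398995 on the same chromosome, which went from 462 to 163 FPKM. Across the 93 genes, Spearman's rho of span was -0.22 with the darkness level and -0.21 with the log2 fold change. FPKM is itself divided by a length, so the first of these shares the span. For the same reason the limit of 400 FPKM favours short models. The shorter spans of abundant genes beside all tested nuclear genes are thus not independent of the rule.

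**Figure D5:**
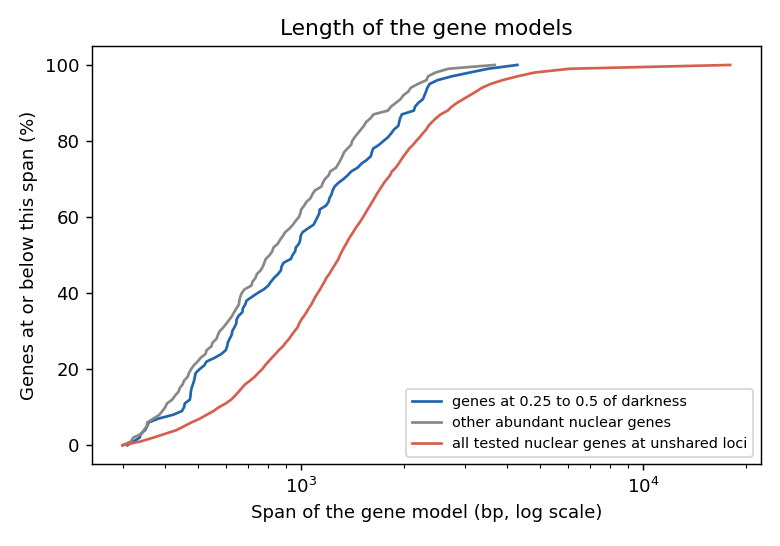
Cumulative share of genes (%) by span of the gene model in bp on a log axis, for the 93 genes, the other 354 abundant nuclear genes and all 4204 tested nuclear genes at unshared loci. The medians are 942, 808 and 1297 bp, and the curve of the 93 genes lies between the other curves over most of its range. Both abundant sets were chosen by FPKM, which is divided by a length.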

How the data were processed

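Per the submitters' processing notes, the authors aligned reads with TopHat2 2.0.5 and compared conditions with Cuffdiff. The version of Cuffdiff, the genome build and the normalization are not stated in any source used here. Per the file headers, the deposited table gives 1 FPKM value per condition and the authors' log2 fold change. It also gives a test statistic, a score deposited by the authors, and the authors' p-value and q-value. The labels give the darkness libraries the same exposure text as the others; groups were taken from sample titles. Log2 fold changes were recomputed from FPKM and differed from those deposited by at most 1.3e-05; 77 deposited cells held a spreadsheet error, none of them a member's. Coordinates are as deposited. A gene was called at a q-value under 0.05 with a valid test.

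Whole fragments were recovered by fitting, per library, the FPKM worth of 1 fragment as a constant divided by span less a fitted length of 162 to 173 bp, and listing all whole-number combinations that gave both deposited values and the deposited fold change within rounding to 6 digits. The deposited value was taken as the mean of 2 libraries. Among values where chance alone would give under 0.05 combinations, 98.6% of 1396 in darkness and 99.1% of 1850 under blue light had a combination. This check covered values with few possible combinations and was not made for the members alone. At their levels and spans, the darkness values of the members had more combinations and lay outside it. It therefore does not check their recovery in darkness. The search was also run on simulated whole fragments averaged over 2 libraries. Those data followed the model assumed here, so they could not check it. Fragments per library limit precision, and SDs rest on 2 libraries.

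The members and lists were chosen with earlier results of these data known. Genes named are the 10 most abundant, those nearest the limits, those not passing, adjacent members and those with recovered libraries; CMD134C, CMD017C, CMG142C, CMR229C and the longest and shortest genes were chosen after their values were seen. Lists by product name could not be filled. Alternatives were other limits, thresholds, pseudocounts, centring and leaving out libraries. Python 3.11.15, numpy 2.4.6 and scipy 1.17.1 were used.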

Additional observations from a re-analysis of the deposited data

How the results depend on the processing

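The number of genes depends on the limits of the rule by construction, since a limit admits or drops genes: it was 59 with a darkness minimum of 600 FPKM and 61 with a span minimum of 650 bp, against 93. With a minimum of 300 FPKM, ratio limits of 0.6 or 0.45, or shared loci kept, it lay between 72 and 130. The count called in the authors' deposited table was 89 at a q-value under 0.01 and 91 with a 1.5-fold limit added, which the rule already ensures. The median log2 fold change of -1.43 was -1.41 after centring on all tested genes and -1.42 and -1.41 with pseudocounts of 1 and 10. The 10 genes with 4 recovered libraries had a median of -1.53, and leaving out each library in turn gave -1.55 to -1.41. A narrower tolerance on the deposited fold change, tried after seeing the data, left unique solutions for 12 genes in 4 libraries and 45 in the blue light libraries, against 10 and 44. No paired analysis was possible because the replicate numbers of the recovered libraries are unknown. The authors' test could not be repeated with a library left out, since the table gives its outcome for the pooled conditions only. Depth limits the recovered values of scarce genes, with 17 fragments in the lowest.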

Other observations

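At loci shared by more than 1 row, 2 further genes met the limits on level and ratio and were not taken as members, which would have made 95.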
